A study of Mus musculus with 4 samples.

Results

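Cyp27a1, Cyp7b1 and Cyp39a1 are the hydroxylases of the alternative route of bile acid synthesis. They were taken by gene symbol, and all 3 were found among the 32285 gene symbols of each of the 4 libraries. The livers came from mice fasted for 16 to 24 h (2 libraries, fasted 1 and fasted 2) and from fed mice (2 libraries, fed 1 and fed 2). For each library, nuclei were prepared from 50 mg of frozen liver pooled from 8 mice and sequenced on the 10x platform (chemistry 3.1), and no library carried a genetic change per the labels. Strain, sex and age are not given in the sources used here. Whether the same mice supplied both preparations of a feeding state is not given either, so the p-values measure the spread between preparations, part of which may be technical.

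Bile acids are made from cholesterol in hepatocytes. In the classic route Cyp7a1 first hydroxylates the sterol ring in the endoplasmic reticulum. In the alternative route the side chain is hydroxylated first, which makes an oxysterol, and a different enzyme then hydroxylates the ring. Cyp27a1 is the mitochondrial enzyme that hydroxylates the side chain, and it also acts on the side chain of intermediates of the classic route. Cyp7b1 is the microsomal enzyme that hydroxylates the ring of the resulting oxysterols. Cyp39a1 is a microsomal ring hydroxylase known for its preference for the oxysterol that the brain exports. Bile acid and cholesterol genes differ in level between hepatocytes near the portal vein (periportal) and those near the central vein (pericentral) of the liver lobule, the repeating unit of the liver.

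In the GENCODE annotation of mm10, the build used for the deposited counts, Cyp27a1 lies on chromosome 1 (74713574 to 74737892, plus strand) and has 9 exons in its first listed transcript. Cyp7b1 lies on chromosome 3 (18071950 to 18243338, minus strand) with 6 exons. Cyp39a1 lies on chromosome 17 (43667425 to 43751431, plus strand) with 12 exons. Nuclear RNA holds much unspliced transcript, and the genes span 24.3, 171 and 84.0 kb, so levels are compared within a gene and not between the 3 genes. Cyp7b1 and Cyp39a1 each contain 1 annotated small nuclear RNA gene on their own strand, and Cyp27a1 overlaps no other gene.

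The promoter of Cyp27a1 is shown because it was the only one of the 3 members with an entry in the RefSeq table used, and it gives the sequence context of the member that was higher near the central vein. It is the stretch of 250 bases before the start that RefSeq gives (GRCm38.p6, chr1:74713285-74713534, plus strand). The capitals mark the 1 match found among 5 motifs searched on both strands.

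Cyp27a1 promoter: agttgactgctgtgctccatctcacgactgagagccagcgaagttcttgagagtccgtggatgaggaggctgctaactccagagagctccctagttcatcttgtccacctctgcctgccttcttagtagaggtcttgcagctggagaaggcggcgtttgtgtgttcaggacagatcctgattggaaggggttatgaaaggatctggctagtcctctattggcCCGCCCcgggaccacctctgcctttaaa

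That match was the GC box (GGGCGG, here on the minus strand), 28 bases before the start, and 32.7% of the 32851 promoters of the same length held at least 1 GC box. The nuclear receptor half-site AGGTCA, the TCF core TCAAAG, the STAT5 element TTCNNNGAA and the E-box CACGTG had no match in this window. Those letters occurred in 14.0%, 13.8%, 7.02% and 6.02% of all promoters, in the order given.

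After filtering, 29724 nuclei formed 20 clusters, built without the 3 members so that their levels did not shape the clusters. Hepatocyte nuclei numbered 5424 and 4540 in fasted 1 and fasted 2 and 5084 and 3734 in fed 1 and fed 2. All 10 hepatocyte markers were detected in each of their 10 clusters, but none led a cluster, and most of these clusters came mainly from 1 library. Before filtering, total counts of unique molecular identifiers (UMIs, 1 per captured transcript) over all barcodes were 30955600 and 24139311 in fasted 1 and fasted 2. They were 22924339 and 8078755 in fed 1 and fed 2. Fed 2 stood apart, with a median of 1273.5 UMIs per hepatocyte nucleus against 2544.5 to 3235.5 in the other libraries. Reads of ribosomal RNA are often assigned to Gm42418, which made up 4.35% of the counts in fed 2 and 0.200% to 0.979% in the others. Pairs of libraries shared 12 to 42 barcodes. Levels are given as CPM, the UMIs of a gene scaled to the total of the nuclei summed in a library.

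Along the lobule the members took 3 different patterns, and each appeared in all 4 libraries. Cyp27a1 was higher near the central vein, Cyp39a1 was higher near the portal vein, and Cyp7b1 was nearly level. Hepatocyte nuclei were placed by a score from 9 pericentral and 11 periportal landmark genes, none of them a member. The score was computed within each library on counts thinned to 1500 UMIs per nucleus. This left 4822 and 4202 scored nuclei in fasted 1 and fasted 2 and 4348 and 1533 in fed 1 and fed 2. Scores from the odd and the even landmarks correlated at 0.57 to 0.69 across nuclei.

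Cyp27a1, which makes the oxysterol that starts the route, stepped up across the lobule. In fasted 1 its level over 5 bins of equal size, from periportal (bin 1) to pericentral (bin 5), was 392, 419.7, 572, 672 and 641 CPM. In fasted 2 it was 235, 313, 415, 573 and 625 CPM. Bin 1 was the lowest in both, and the top was reached in bin 4 of fasted 1 and in bin 5 of fasted 2. In fed 1 the same bins held 192, 228, 269, 377 and 443 CPM. In fed 2 they held 118, 188, 237, 309 and 339.8 CPM. Each fed library thus increased at every step. Bin 5 exceeded bin 1 by 1.64-fold and 2.66-fold in fasted 1 and fasted 2 and by 2.31-fold and 2.88-fold in fed 1 and fed 2.

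Cyp39a1, the ring hydroxylase of brain-derived oxysterol, stepped down over the same bins. From bin 1 to bin 5 fasted 1 held 189, 163, 126, 109 and 78.9 CPM. Fasted 2 held 226, 224, 181, 109.8 and 74.3 CPM, and fed 1 held 167, 143, 101, 78.6 and 44.9 CPM. Bin 1 was the highest and bin 5 the lowest in all 4 libraries. Fed 2 was the only library with a step against this order, with 55.9, 29.1, 36.9, 19.99 and 19.6 CPM from 46, 25, 33, 19 and 18 UMIs. Bin 1 exceeded bin 5 by 2.40-fold and 3.05-fold in fasted 1 and fasted 2 and by 3.71-fold and 2.85-fold in fed 1 and fed 2. The ratio of Cyp27a1 to Cyp39a1 UMIs, which does not depend on scaling, was thus 3.93 and 8.10 times as high in bin 5 as in bin 1 of fasted 1 and fasted 2. In fed 1 and fed 2 it was 8.58 and 8.22 times as high.

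Cyp7b1, the ring hydroxylase that follows Cyp27a1, showed no such slope. Over the bins fasted 1 held 900.0, 931, 977, 968 and 1058 CPM of it, and fasted 2 held 923, 949.7, 948, 968 and 903 CPM. Fed 1 held 4273, 4965, 4887, 5381 and 5075 CPM, and fed 2 held 1431, 1377, 1216, 1456 and 1219.9 CPM. The highest bin exceeded the lowest by only 1.07-fold to 1.26-fold, and the highest was bin 4 in 3 libraries and bin 5 in fasted 1. Fed 1 lay above every other library at every position.

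**Figure D1:**
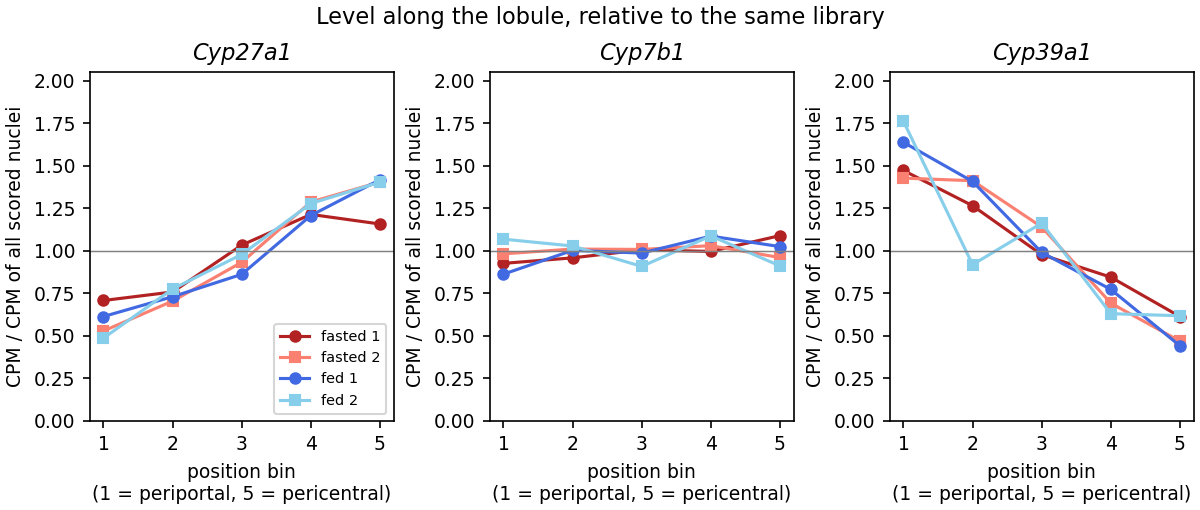
Level of Cyp27a1, Cyp7b1 and Cyp39a1 in 5 bins of hepatocyte nuclei ordered from periportal (1) to pericentral (5), each divided by the CPM of all scored nuclei of the same library, with 1 line per library. Bin 5 exceeded bin 1 by 1.64-fold to 2.88-fold for Cyp27a1, the lines of Cyp7b1 stay near 1, and Cyp39a1 is highest in bin 1 of all 4 libraries.

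The test divided the nuclei of each library into 3 equal bins and compared the most pericentral with the most periportal bin, with the 4 libraries as blocks, in edgeR's quasi-likelihood test with Benjamini-Hochberg adjustment over all genes tested. Of 12283 genes, 16.5% passed at an adjusted p of 0.05, 8.32% on the pericentral side and 8.14% on the periportal side. Cyp27a1 passed on the pericentral side with a log2 difference of 1.01 (SE 0.074, adjusted p = 2.26e-08), or 2.02-fold. Cyp39a1 passed on the periportal side with a log2 difference of -1.29 (SE 0.079, adjusted p = 4.10e-10), or 2.45-fold higher periportally. Cyp7b1 did not pass, with 0.03 (SE 0.069, adjusted p = 0.840), and its sign turned without fasted 1 (-0.01) and without fed 1 (-0.03).

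The share of nuclei with at least 1 UMI, on counts thinned to 1500 UMIs, had the same direction for Cyp27a1 and Cyp39a1. For Cyp27a1 it was 55.8% in bin 5 of 5 (pericentral) against 38.3% in bin 1 (periportal) of fasted 1, and 56.0% against 25.3% in fasted 2. In the same order it was 42.8% against 25.4% in fed 1 and 35.9% against 16.9% in fed 2. The exact (Clopper-Pearson) 95% intervals, which cover counting error only, did not overlap in any of the 4 libraries. For Cyp39a1 the pericentral share was 9.54% against 24.5% periportally in fasted 1, and 8.57% against 25.0% in fasted 2. It was 6.56% against 21.0% in fed 1 and 3.59% against 8.47% in fed 2, and only in fed 2 did the intervals overlap (1.81% to 6.34% against 5.61% to 12.2%). For Cyp7b1 the pericentral share was above the periportal one in 3 libraries and below it in fasted 2, at 64.1% against 58.0% in fasted 1, 58.0% against 58.9% in fasted 2, 91.6% against 89.2% in fed 1 and 66.99% against 58.96% in fed 2. The exact intervals of Cyp7b1 overlapped in all 4 libraries. In fed 2 its share and its level went in opposite directions, with the CPM of bin 5 at 0.853 times that of bin 1.

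The patterns were present in each feeding state. In fits within a state, chosen after the data were seen, the log2 difference of Cyp27a1 was 0.96 (SE 0.11, adjusted p = 0.000254, edgeR) in the fasted libraries and 1.07 (SE 0.098, adjusted p = 1.33e-05) in the fed ones. Cyp39a1 had -1.25 (SE 0.070, adjusted p = 3.73e-66) in the fasted and -1.35 (SE 0.14, adjusted p = 3.26e-05) in the fed libraries. Cyp7b1 passed in neither, with 0.09 (SE 0.050, adjusted p = 0.279) fasted and -0.02 (SE 0.14, adjusted p = 0.972) fed. These 2 fits called 19.3% of genes in the fasted and 7.82% in the fed libraries. Each rests on 2 libraries and takes most of its estimate of spread from other genes. Their p-values thus cannot be ranked against each other or against those of the fit of all libraries.

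The difference of the position effect between feeding states was tested as an interaction, which 38 of 12283 genes passed (0.309%). It was -0.10 (SE 0.15, adjusted p = 0.959, edgeR) for Cyp27a1 and 0.11 (SE 0.16, adjusted p = 0.955) for Cyp39a1. It was 0.10 (SE 0.13, adjusted p = 0.953) for Cyp7b1. No member passed in this fit of all 4 libraries, and all 3 estimates were smaller than their SE. For Cyp7b1 the value rested on single libraries, at 0.34 without fed 1, -0.11 without fed 2 and between -0.11 and 0.34 over all libraries left out in turn. Such fits keep 1 library in 1 feeding state, so only their sizes are given.

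Between feeding states, hepatocytes of fasted livers had higher values of Cyp27a1 and Cyp39a1 and lower values of Cyp7b1 than those of fed livers, but none of the 3 differences passed over all genes. In this comparison 1 of 14012 genes passed in edgeR (0.00714%), where 962 had an unadjusted p under 0.05, and 172 of 12334 passed in DESeq2 (1.39%). The unadjusted edgeR p of the members was 0.0317 for Cyp27a1, 0.0801 for Cyp39a1 and 0.0264 for Cyp7b1. Groups that did not overlap were common, with the fasted libraries both above the fed ones for 20.6% of genes and both below them for 15.7%.

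Cyp27a1 was at 549 and 442 CPM in fasted 1 and fasted 2, against 311 and 231 CPM in fed 1 and fed 2. It averaged 495.5 ± 75.6 CPM in fasted and 271 ± 57.0 CPM in fed hepatocytes (SD, n = 2 each). Both fasted libraries lay above both fed ones. The log2 fold change was 0.84 (SE 0.31), with an adjusted p of 0.672 in edgeR and 0.589 in DESeq2. It stayed between 0.70 and 1.00 in every alternative tried and passed in none.

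Cyp39a1 reached 129 and 159 CPM in fasted 1 and fasted 2, against 103 and 33.9 CPM in fed 1 and fed 2. It averaged 144 ± 21.2 CPM in fasted and 68.4 ± 48.8 CPM in fed hepatocytes (SD, n = 2 each), and the groups did not overlap. The log2 fold change was 1.07 (SE 0.51, adjusted p = 0.753, edgeR). The fed libraries differed from each other by 3.03-fold. The value was 1.98 without fed 1 and 0.52 without fed 2, the shallow library with the high share of Gm42418, whose part in this was not tested. Each of these fits keeps 1 fed library, so only its size is given.

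Cyp7b1 was at 968 and 933 CPM in fasted 1 and fasted 2, against 4876 and 1317 CPM in fed 1 and fed 2. It averaged 951 ± 24.3 CPM in fasted and 3096 ± 2517 CPM in fed hepatocytes (SD, n = 2 each). The fasted libraries agree within 1.04-fold, while fed 1 was 3.70 times as high as fed 2. The log2 fold change was -1.70 (SE 0.58), with an adjusted p of 0.642 in edgeR and 0.115 in DESeq2. It was -2.32 without fed 2 and -0.57 without fed 1, in fits that keep 1 fed library each and lose the spread between the fed libraries. Without the filter on low counts it was -1.67 (adjusted p = 0.00274, edgeR), in a fit that called 271 of 24872 genes.

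**Figure D2:**
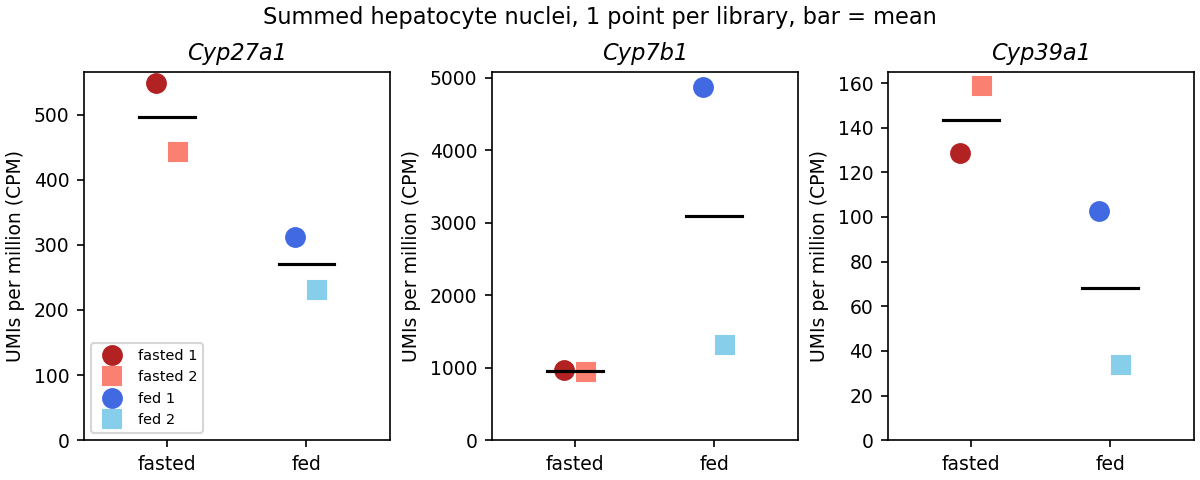
Level of each member in summed hepatocyte nuclei (CPM, linear axes from 0), fasted libraries left and fed libraries right, with 1 point per library and a bar at the mean of 2. Both fasted points lie above both fed ones for Cyp27a1 and Cyp39a1 and below them for Cyp7b1, where fed 1 (4876 CPM) stands far above fed 2 (1317 CPM).

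The high Cyp7b1 of fed 1 was spread over its hepatocytes. In its 3 clusters of at least 300 nuclei, Cyp7b1 was at 5028, 4590 and 5079 CPM. The first was the largest cluster of fed 1, with 2783 nuclei. The second, of 1727 nuclei, was led by the acute phase genes Saa1 and Saa2 (Saa1 at 1059 CPM). The remaining one held 509 nuclei around the central vein, with Glul at 1003 CPM. The lowest of these was above the 1108 to 1348 CPM of the fed 2 clusters and the 833 to 1048 CPM of the fasted clusters of that size. On thinned counts, 50.3% of hepatocyte nuclei of fed 1 held at least 5 Cyp7b1 UMIs, against 11.4% in fed 2, and 5.16% and 6.31% did in fasted 1 and fasted 2. Most of these clusters came from 1 library, while the one led by Slc1a2 and Glul held nuclei of fasted 1, fasted 2 and fed 2 (682, 571 and 342).

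The same clusters gave Cyp27a1 its highest levels where nuclei were pericentral or rich in Cyp7a1. A cluster of fasted 1 led by Cyp7a1 (1773 nuclei, Cyp7a1 at 677 CPM) had 684 CPM of Cyp27a1 and 105 CPM of Cyp39a1. The periportal cluster of the same library (2734 nuclei, Cyp7a1 at 210.2 CPM) had 392 CPM of Cyp27a1 and 166 CPM of Cyp39a1. Slc1a2 and Glul were among the leading genes of the clusters that ring the central vein. There Cyp27a1 was at 641 and 630 CPM in fasted 1 and fasted 2 and at 448 and 337 CPM in fed 1 and fed 2. Cyp39a1 was at 93.4 and 90.4 CPM in these nuclei of fasted 1 and fasted 2 and at 44.2 and 17.4 CPM in those of fed 1 and fed 2. The fed 1 values are from a separate cluster (509 nuclei), and the others are from the cluster that those libraries shared. These clusters were formed from the same nuclei, and their levels are a description with no test.

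Across nuclei thinned to 1500 UMIs, Cyp27a1 was detected in 47.6% (exact 95% interval 46.2% to 49.0%) and 41.3% (39.8% to 42.8%) of hepatocytes in fasted 1 and fasted 2. In fed 1 and fed 2 it was detected in 32.5% (31.2% to 34.0%) and 26.6% (24.4% to 28.9%). Every fasted interval lay above every fed one, but these intervals cover counting error only and not the spread between libraries. By level in CPM, 20.6% of genes had both fasted libraries above both fed ones. Cyp39a1 was detected in 16.3% and 18.5% of fasted and in 14.1% and 4.96% of fed nuclei. Cyp7b1 was detected in 62.3% and 59.4% of fasted and in 90.8% and 62.3% of fed nuclei, so that by this share fasted 1 and fed 2 were alike to 3 digits. Without thinning, the Cyp7b1 shares were 76.5% and 74.7% in fasted and 93.1% and 63.9% in fed nuclei, and the groups overlapped. With 2 libraries against 2, an exact two-sided permutation test cannot go below p = 0.333, so no test was made on shares.

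Nuclei with UMIs of all 3 members were few, at 4.67% and 4.403% in fasted 1 and fasted 2 and 3.29% and 0.848% in fed 1 and fed 2. Nuclei with none made up 15.8% and 19.6% in fasted and 5.29% and 26.7% in fed libraries.

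The feeding difference was of like size at both ends of the lobule, in fits chosen after the data were seen. In the most pericentral of 3 bins it was 0.70 (SE 0.30) for Cyp27a1, -1.73 (SE 0.63) for Cyp7b1 and 1.03 (SE 0.50) for Cyp39a1 on the log2 scale. In the most periportal bin it was 0.83 (SE 0.36), -1.72 (SE 0.53) and 0.98 (SE 0.55) for the same genes. No member passed in either bin (adjusted p from 0.578 to 0.918, edgeR), where 0.00841% and 0.00884% of genes passed.

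The other genes of bile acid synthesis were compared from lists chosen with earlier results of these data known. Of the 6 classic route and ring enzymes, 3 were higher pericentrally by the test and none periportally, where 16.5% of all genes passed on either side (list median of the log2 difference 0.82, all genes -0.01). Cyp7a1, the first enzyme of the classic route, had 2.35 (SE 0.39, adjusted p = 0.0443, edgeR), a call lost without fasted 1 (adjusted p = 0.154), fed 1 (0.172) or fed 2 (0.116). Hsd3b7, which oxidises the ring after its hydroxylation in both routes, had 1.26 (SE 0.082, adjusted p = 9.52e-10). Cyp2c70, which makes the muricholic acids of mice, had 0.38 (SE 0.096, adjusted p = 0.0125). Akr1c6, a hydroxysteroid dehydrogenase, had 2.32 (SE 0.47, adjusted p = 0.0697) and did not pass. Akr1d1, the reductase of the sterol ring, had 0.06, and Cyp8b1, the enzyme that makes the cholic acid branch, had -0.18, and neither passed.

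Cytochromes P450 need electron donors, and 4 of the 5 donor genes passed by position. Of the mitochondrial pair that serves Cyp27a1, the ferredoxin gene Fdx1 was higher pericentrally (0.55, SE 0.092, adjusted p = 2.12e-04, edgeR) and the reductase gene Fdxr was higher periportally (-0.39, SE 0.078, adjusted p = 0.00121). Por, the reductase that serves the microsomal Cyp7b1 and Cyp39a1, was higher pericentrally (0.69, SE 0.087, adjusted p = 1.33e-04). Cyb5a, the cytochrome b5 gene, was higher pericentrally as well (0.80, SE 0.058, adjusted p = 4.87e-09), and Cyb5r3, its reductase, had -0.13 and did not pass. Of 6 genes that bring cholesterol to mitochondria or move it between membranes, 1 passed, a share near the 16.5% of all genes. Stard4, a soluble cholesterol carrier, was higher periportally (-0.60, SE 0.12, adjusted p = 0.00117). Star, Stard3, Stard5, Tspo and Osbpl1a had values from -0.45 to 0.18 and did not pass.

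**Figure D3:**
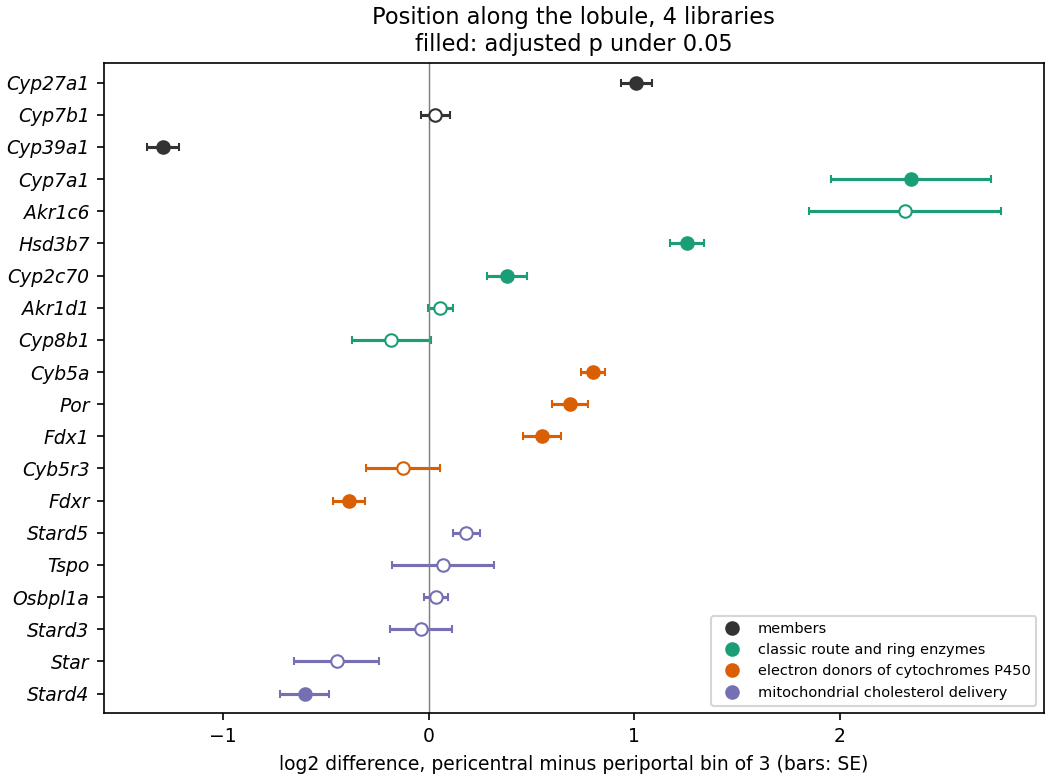
Log2 difference between the most pericentral and the most periportal of 3 bins of hepatocyte nuclei (x axis, bars are SE, 4 libraries) for the members and for the classic route, electron donor and cholesterol delivery genes, with filled points for adjusted p under 0.05. Cyp27a1 (1.01) lies on the pericentral side with Cyp7a1 (2.35), Cyp39a1 (-1.29) lies farthest to the periportal side, and Cyp7b1 (0.03) lies at 0.

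Of 10 genes of side chain shortening and conjugation, 2 passed, which is near the 16.5% of all genes. Both were higher pericentrally: Amacr, a racemase of side chain intermediates, with 0.31, and Hsd17b4, a peroxisomal enzyme of side chain oxidation, with 0.21. Of 6 tested genes among 9 other oxysterol makers and users, 1 passed pericentrally and 3 periportally. Sult2a8, a bile acid sulfotransferase, had 1.20. Cyp46a1, which makes the oxysterol that Cyp39a1 prefers, had -1.65 (SE 0.41, adjusted p = 0.00702, edgeR) from low levels of 3.99 and 3.08 CPM in the fasted and 1.89 and 1.36 CPM in the fed libraries. Dhcr7 and Ebp, late enzymes of cholesterol synthesis, had -1.08 and -0.46. Among the regulators, Rora passed pericentrally (0.28) and Hnf4a passed periportally (-0.16). Nr0b2, a repressor of bile acid genes, had an interaction of position and feeding (-0.94, adjusted p = 0.0216, edgeR). The call was lost with DESeq2 (-0.80) and with the odd landmarks (-0.84), among others. The estimate was -0.75 without fasted 1 and -0.42 without fed 1. By position, the calls of Cyp2c70, Amacr, Hsd17b4, Cyp46a1, Ebp and Hnf4a were lost without 1 or more of the libraries, at an unchanged sign.

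By feeding, no gene of these 6 lists or of the growth hormone and STAT5 list passed in edgeR. Of the 69 list genes tested, 15 had an unadjusted p under 0.05 (7 higher and 8 lower in fasted hepatocytes). Over all genes, 962 of 14012 did. The lists were chosen with earlier results of these data known, so the list counts are a description only. The list medians of the log2 fold change ran from -0.48 for the growth hormone list to 0.49 for side chain genes, beside -0.01 for all genes. DESeq2 called 7 genes of the lists, all lower in fasted hepatocytes. Over all genes it called 172 of 12334 (1.39%), 83 higher and 89 lower. Cyp2c70 had 44.1 and 12.2 CPM in fasted 1 and fasted 2, against 791 and 182 CPM in fed 1 and fed 2, a log2 fold change of -4.12 (SE 0.89, adjusted p = 0.480 in edgeR and 6.25e-07 in DESeq2). Stard4 was at 27.3 and 12.6 CPM in fasted hepatocytes, against 103 and 80.4 CPM in those of fed mice (-2.24, adjusted p = 0.470 in edgeR and 0.00160 in DESeq2). The other 5 belonged to the growth hormone list, which was included because Cyp7b1 is known as a male-biased gene of mouse liver: Hsd3b5, Cish, Mup7, Onecut1 and Selenbp2. Like Cyp7b1, Onecut1 and Selenbp2 were far higher in fed 1 than in fed 2, with Onecut1 at 59.6 and 65.9 CPM in fasted 1 and fasted 2, against 580.3 and 114 CPM in fed 1 and fed 2. Hsd3b5, a steroid reductase of male liver, had -4.74 and Mup7, a urinary protein gene, had -2.90. Cish, a STAT5 target that inhibits the signal, had -2.44. The growth hormone list was not uniform: of its 22 genes, 14 had edgeR values below 0 and 8 had values above 0.

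Other genes with the smallest unadjusted p of their list are given with their values and did not pass in either tool. Cyp7a1 had 1.65 and Cyp8b1 had 1.96 on the log2 scale of fasted against fed. Slc27a2, which activates bile acid precursors and fatty acids, had 0.96, Acot8 had 1.09 and Hsd17b4 had 0.70. Por had 0.96 and Stard5, a cholesterol-binding protein gene, had 1.07. Cyp46a1 had 1.08, Dhcr7 -0.80 and Ebp 0.34. Foxa2 had -0.63 and Nr0b2 -0.75.

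Over 20 sums of hepatocytes (5 position bins in each of 4 libraries), genes of at least 10 CPM were ranked by Pearson's r of log2(CPM + 1) with each member, as a description over points that share libraries and depth. Of 7828 genes, Tox (0.96), Fmo1 (0.95), Cyp7a1 (0.95), Fmo2 (0.94) and Trim24 (0.94) were most like Cyp27a1. Fmo1 and Fmo2 are flavin monooxygenases. C8b (0.98), Onecut1 (0.98), Apobec1 (0.97), Nsd3 (0.97) and Edem1 (0.97) were most like Cyp7b1, with log2 differences by position from -0.43 (Onecut1) to 0.12 (Apobec1). Asl (0.97), Ppargc1a (0.95), Celsr1 (0.95), Pde7b (0.94) and Nrg4 (0.94) were most like Cyp39a1. Asl is an enzyme of the urea cycle and Ppargc1a a coactivator of fasting genes. The log2 difference by position ran from 0.85 to 2.35 for the 5 genes most like Cyp27a1 and from -1.93 to -0.80 for those most like Cyp39a1, as a description, since the same bins had ranked them. Between members r was -0.33 for Cyp27a1 and Cyp7b1, 0.15 for Cyp27a1 and Cyp39a1 and -0.10 for Cyp7b1 and Cyp39a1.

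Outside hepatocytes, all 3 members had UMIs in every named cell type, mostly at levels within the range of hepatocyte markers. Endothelial nuclei showed a Cyp7b1 UMI in 34.9% and 28.3% of nuclei in fasted 1 and fasted 2 and in 82.6% and 59.1% in fed 1 and fed 2. Their median depth was 808, 888, 841.5 and 765 UMIs in that order, against 1273.5 to 3235.5 in hepatocytes. For Cyp27a1 the endothelial shares were 14.5% and 13.0% in fasted and 8.85% and 5.84% in fed, and for Cyp39a1 they were 6.23% and 7.46% in fasted and 6.60% and 1.30% in fed. Free RNA in a suspension of nuclei can give UMIs in nuclei that do not express a gene, and its part in these shares against expression of their own was not tested. It was not subtracted from any level given here, and in fed 2 the unthinned Cyp7b1 share of hepatocytes (63.9%) stood little above the endothelial one.

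To set the members beside genes that mark hepatocytes, the level of each member in a type was divided by its level in hepatocytes of the same library, and the same was done for 10 hepatocyte markers such as Alb and Apob. Over 4 libraries and the 5 other types that had 20 or more nuclei in each, members gave 60 such values, with a median of 60.0% of the hepatocyte level. Of these, 47 lay within the range of the 10 markers of the same type and library, 8 lay below it and 5 above. That range was wide, for example 32.8% to 106% in endothelial nuclei of fasted 1. In cholangiocyte and B or plasma cell nuclei of fed 2 it began at 0, so no value could lie below it there. How many other genes fall within such ranges was not tested. The markers' medians ran from 37.5% to 88.2%. Cyp27a1 was never above the range and was below it in 6 of 20 values.

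Of the 5 values above the range, 4 were in fed 2, where these types held few nuclei. Cyp7b1 was above in B or plasma cell nuclei of fed 2 (207%, from 87 UMIs in 24 nuclei) and just above in endothelial (92.9%, highest marker 92.4%) and cholangiocyte nuclei of that library. Cyp39a1 was above in cholangiocyte nuclei of both fed libraries. There it was at 89.1% and 71.1% of the hepatocyte level in fasted 1 and fasted 2 and at 103% and 274% in fed 1 and fed 2. The markers' medians in cholangiocyte nuclei were 79.7% and 37.5% in fasted and 41.6% and 52.6% in fed. These Cyp39a1 values rest on 50, 18, 21 and 2 UMIs in the same order of libraries.

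**Figure D4:**
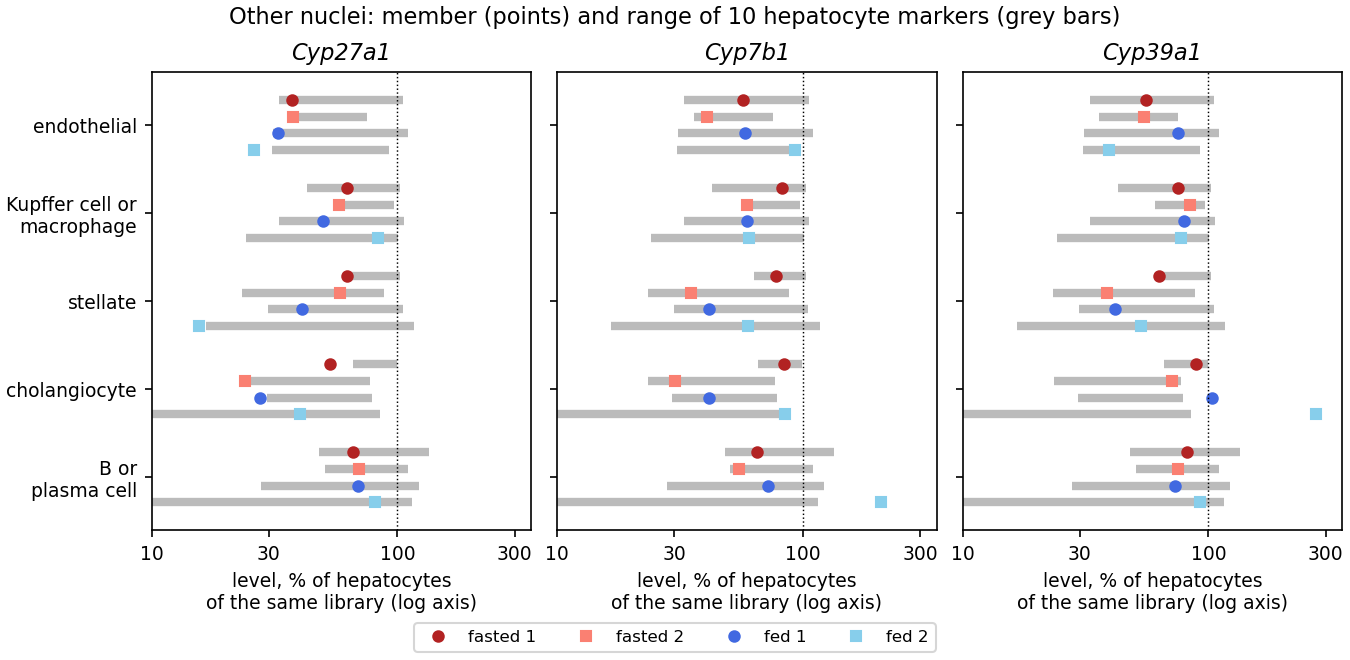
Level of each member in 5 other types of nuclei as a percentage of its level in hepatocytes of the same library (points, log axis), with grey bars for the range of 10 hepatocyte markers in the same type and library, cropped at 10%. Of 60 points, 47 lie on their bars, and the points farthest to the right are Cyp7b1 in B or plasma cells (207%) and Cyp39a1 in cholangiocytes (274%) of fed 2.

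By the mean over the 4 libraries, the order of levels by cell type was as follows. No neighbours in any order were apart beyond their ranges over libraries, which span both feeding states. Cyp27a1 averaged 383 ± 141 CPM in hepatocytes, 268 ± 81.0 in B or plasma cells, 264 ± 91.5 in T or NK cells, 237 ± 82.6 in Kupffer cells or macrophages, 191 ± 136 in stellate cells, 157 ± 138 in dendritic cells, 145 ± 99.4 in cholangiocytes, 133 ± 64.2 in endothelial and 126 ± 177 in mesothelial nuclei (SD, n = 4). Hepatocytes thus headed the order of Cyp27a1. Cyp7b1 averaged 2023 ± 1909 CPM in hepatocytes, 1846 ± 1510 in B or plasma cells, 1751 ± 1407 in dendritic cells, 1563 ± 1238 in T or NK cells, 1324 ± 1037 in mesothelial nuclei, 1260 ± 1094 in Kupffer cells or macrophages, 1244 ± 1113 in endothelial nuclei, 1058 ± 730.2 in cholangiocytes and 969 ± 727 in stellate cells (SD, n = 4). Cyp39a1 averaged 123 ± 124 CPM in dendritic cells, 107 ± 9.75 in cholangiocytes, 106 ± 53.2 in hepatocytes, 95.5 ± 70.2 in T or NK cells, 84.6 ± 44.5 in Kupffer cells or macrophages, 82.6 ± 38.8 in B or plasma cells, 70.2 ± 62.5 in mesothelial, 62.1 ± 33.1 in endothelial and 50.8 ± 26.9 in stellate nuclei (SD, n = 4). T or NK, mesothelial and dendritic nuclei numbered only 6, 4 and 4 in fed 2, and their place rests on few UMIs.

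Fitted per type, the feeding difference of Cyp7b1 had the sign it had in hepatocytes in each of the 5 other types. Most Cyp7b1 levels in these types lay within the range of hepatocyte markers (16 of 20 values). The part of free hepatocyte RNA in these differences was not tested. No member passed in any of the 5 types in the main edgeR fit, which used all libraries, the low-count filter and no block. The 15 fits of a member to a type share the same libraries. Of them, 7 had an unadjusted p under 0.05 in edgeR, and DESeq2 called 2. Over all genes, 365 of 10042 were under 0.05 unadjusted in endothelial, 239 of 7262 in stellate and 192 of 4005 in cholangiocyte nuclei. The Cyp7b1 difference was -2.15 in endothelial nuclei (SE 0.44, adjusted p = 0.319), where 0.0199% of genes passed. It was -2.43 in B or plasma cells (adjusted p = 0.347), where 0 of 3439 genes passed in edgeR (0%), 119 had an unadjusted p under 0.05 and DESeq2 called 3 genes (0.0212%). It was -1.43 in Kupffer cells or macrophages (edgeR 0%, 0 of 8206 genes with 248 at an unadjusted p under 0.05, and 9 genes or 0.0498% in DESeq2), -1.37 in stellate cells (0.0826%) and -1.47 in cholangiocytes (0.0749%). Cyp7b1 was called by DESeq2 in endothelial nuclei (-2.13, adjusted p = 0.00755, where it called 0.198% of genes) and in B or plasma cells (-2.37, adjusted p = 0.0144). In edgeR its call depended on the fit. With the replicate number as a block, Cyp7b1 passed in endothelial nuclei (-2.08, adjusted p = 5.06e-07, edgeR) and in B or plasma cells (-2.42, adjusted p = 1.69e-04). Cyp27a1 passed with the block in endothelial nuclei (1.12, adjusted p = 0.0433). The block fits called 194 of 10042 genes in endothelial nuclei and 28 of 3439 in B or plasma cells. Without the low-count filter Cyp7b1 passed in endothelial nuclei (-2.14, adjusted p = 4.01e-04, edgeR) and in B or plasma cells (-2.22, adjusted p = 0.00975). Those fits called 41 of 19639 and 20 of 14177 genes. Fits with a fed library left out keep 1 fed library, so only their sizes are given. Cyp7b1 had -1.48 without fed 1 and -2.59 without fed 2 in endothelial nuclei. In B or plasma cells it had -2.27 without fed 1 and -2.57 without fed 2. In Kupffer cells or macrophages it had -0.37 without fed 1 and -2.01 without fed 2. In endothelial nuclei Cyp7b1 was at 57.1% and 40.6% of the hepatocyte level in fasted 1 and fasted 2 and at 57.9% and 92.9% in fed 1 and fed 2. In B or plasma cells it was at 65.0% and 54.8% in fasted 1 and fasted 2 and at 72.2% and 207% in fed 1 and fed 2. Cyp27a1 and Cyp39a1 had positive values in all 5 types, from 0.20 to 1.72, with adjusted p of at least 0.976 in the main edgeR fit.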

How the data were processed

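Nuclei of fasted and fed mouse liver were sequenced as 4 libraries. The deposited matrices hold raw UMI counts per gene symbol and barcode, made with Cell Ranger 6.0 on mm10 per the submitters' processing notes. Between 13.2% and 17.0% of the stored entries are 0, so some counts may have been lowered before the authors deposited them, by a step not given in the sources used here. The members and all gene lists were chosen with earlier results of these data known.

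Barcodes were kept when they had 500 genes or more and no more than 5% of their UMIs from mitochondrial genes. The barcodes with the highest Scrublet doublet scores were removed (0.8% per 1000 barcodes), which took 1108 and 450 in fasted 1 and fasted 2 and 758 and 233 in fed 1 and fed 2. The automatic threshold marked 1781, 0, 1 and 2 in that order and served as an alternative. The nuclei used numbered 10150, 6609, 8819 and 4146. Clusters (scanpy 1.11.5, leidenalg 0.10.2, 2000 variable genes, 30 components, 15 neighbours, resolution 1) were named from fixed markers, 3 or more detected in at least 10% of nuclei, and are "-like" types throughout. A cluster of 78 nuclei stayed unnamed.

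Counts were summed per library and type and tested in edgeR 4.0.16 (R 4.3.3, quasi-likelihood F test, robust fit, TMM scaling, filterByExpr) with Benjamini-Hochberg adjustment over all genes and a threshold of 0.05. The SE is the log2 fold change divided by the square root of F. DESeq2 1.42.0 was the alternative tool. Position landmarks were those found in 2% or more of the hepatocytes of each library, and 3877 hepatocyte nuclei under 1500 UMIs were not scored. The genes named are the 3 members, all genes of the classic route, electron donor and cholesterol delivery lists, the 3 of each other list with the smallest unadjusted p by feeding, and the 5 most like each member. Other named list genes (Amacr, Sult2a8, Rora, Hnf4a, Onecut1, Selenbp2) were added after their values were seen, since they passed a test. Some genes of the regulator list are not reported here. Promoter sequence came from RefSeq tables, which matched 1 of the 3 members. The scripts were tested on simulated data. Exact intervals and counts cover counting error only.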

Additional observations from a re-analysis of the deposited data

How the results depend on the processing

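The position results of Cyp27a1 (0.81 to 1.16) and Cyp39a1 (-1.57 to -1.11) kept their direction and passed in all 14 alternatives each. Cyp7b1 by position ran from -0.033 to 0.13 with a library left out and was -0.024 in the fed libraries alone. The position interaction with a library left out is given by size only. It ran from -0.36 to 0.14 for Cyp27a1, -0.11 to 0.34 for Cyp7b1 and -0.14 to 0.31 for Cyp39a1. It turned to 0.024 for Cyp27a1 with stored zeros counted as 1 and to -0.062 for Cyp39a1 with the even landmarks. The cause was not tested.

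By feeding in hepatocytes, leaving out a library gave 0.70 to 1.00 for Cyp27a1, -2.32 to -0.57 for Cyp7b1 and 0.52 to 1.98 for Cyp39a1. These fits keep 1 library in 1 feeding state, so only their sizes are given, here and below. Cyp7b1 passed in hepatocytes without the low-count filter (-1.67). In endothelial nuclei Cyp7b1 passed with DESeq2 (-2.13), without the filter (-2.14) and with the replicate block (-2.08). With a library left out it ran from -2.59 to -1.48 there. In B or plasma cells it passed with DESeq2 (-2.37), without the filter (-2.22) and with the replicate block (-2.42). With a library left out it ran from -2.57 to -2.27 there. In Kupffer cells or macrophages it passed in no fit of all libraries, and it ran from -2.01 to -0.37 with a library left out. Cyp27a1 passed in endothelial nuclei with the replicate block (1.12, adjusted p = 0.0433, edgeR). The samples share only a number: replicate differences of the groups correlated at 0.55 over genes, with 2 pairs. The block raised the calls by feeding in hepatocytes from 1 to 100 genes. It raised them from 2 to 194 in endothelial nuclei and from 0 to 28 in B or plasma cells. With the block the values of the members in hepatocytes were 0.85, -1.45 and 1.22 for Cyp27a1, Cyp7b1 and Cyp39a1, and none passed.

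Genes called by feeding numbered 172 with DESeq2, 0 with RLE scaling, 271 without the filter, 0 with stored zeros counted as 1 and 4 to 454 with a library left out. Genes called by the interaction numbered 3 with DESeq2, 98 without the filter, 14 and 16 with the odd and the even landmarks and 13 to 231 with a library left out. Where the edgeR count was 0 with RLE scaling or stored zeros, the number at an unadjusted p under 0.05 was 957 and 1129. Without thinning, the difference in the share of nuclei, fasted minus fed, was 24.7 points for Cyp27a1 and 18.0 points for Cyp39a1, against 14.9 and 7.90 points thinned. For Cyp7b1 it was -2.90 points without thinning, -15.7 points thinned to 1500 UMIs and -20.01 points thinned to 1000 UMIs. Of 17 calls of other named genes by position or interaction, 9 held in all 12 alternatives, 8 were lost in 1 or more, and none changed sign. Hnf4a and Ebp were each lost in 7 of the 12. Cyp39a1 had only 225 UMIs in hepatocytes of fed 2, which limits its precision there. B or plasma cell nuclei without fasted 2 gave no value for Cyp39a1.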
